A study of Mus musculus with 6 samples.

Results

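Mitochondrial fatty acid oxidation is described here through 10 genes: the carnitine palmitoyltransferases Cpt1a and Cpt2, the acyl-CoA dehydrogenases Acadvl, Acadl, Acadm and Acads, the trifunctional protein subunits Hadha and Hadhb, the dienoyl-CoA reductase Decr1 and the thiolase Acaa2. They were chosen by name, and all 10 were found among the 25690 genes of the deposited table. The series holds RNA sequencing of mouse liver, with 3 FTO knockout libraries (hepatic knockout) and 3 wild type control libraries. FTO removes the methyl group of N6-methyladenosine in RNA. The labels give no strain, age, sex, diet or Cre driver for either group, and do not say that libraries came from separate animals. The spread behind each p-value is that among these libraries and may be technical only. Levels are FPKM, fragments scaled to transcript length and to the mapped fragments of the library, and can be compared between genes because they are per length.

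Long-chain fatty acids enter mitochondria as carnitine esters. CPT1 on the outer membrane makes the ester, a translocase carries it across the inner membrane, and CPT2 on the inner side returns the acyl-CoA. Each round of beta-oxidation then uses an acyl-CoA dehydrogenase, a hydratase, a hydroxyacyl-CoA dehydrogenase and a thiolase to release acetyl-CoA, which the liver uses for energy and for ketone bodies. Many of these genes are known targets of the nuclear receptor PPAR alpha.

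The targeted gene was lower in the libraries labelled as knockout. Fto (ENSMUSG00000055932, chromosome 8, 91313525 to 91668439, mm10) was at 1.79, 3.83 and 2.66 FPKM in knockout replicates 1, 2 and 3, against 6.67, 6.02 and 6.40 FPKM in wild type replicates 1, 2 and 3. Each knockout library was under each wild type library. The log2 change was -1.0 (SE 0.19; adjusted p 0.0386, limma). This is a level over all exons of Fto and does not resolve which were deleted. The call ended without knockout replicate 1 (adjusted p 0.0683) or 3 (0.147) and without wild type replicate 1 (0.0812), 2 (0.115) or 3 (0.0636). It also ended with rescaling to genes outside the mitochondrial genome (0.0613) and with no filter on low values (0.197). Over 13 alternatives the adjusted p of Fto ran from 0.0196 to 0.197.

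Depth inferred from the steps of low FPKM values was 34140000 to 42530000 fragments per library. Only values that implied a depth within a fixed window entered it. At that depth each of the 10 genes had at least 4512 fragments in every library if all came from its longest transcript, so counting error was at most 1.49%. If they came from shorter transcripts, the fragments would be fewer and the error larger. Wild type replicate 3 differed most from the rest of its group. Over 774 abundant genes its median absolute log2 difference was 0.41 from wild type replicate 1 and 0.29 from wild type replicate 2, against 0.14 between those. Between knockout libraries it was 0.12 to 0.19. Of 8 hepatocyte markers 7 reached at least 64.6 FPKM in each library. The eighth, Alb, was listed at 0 in knockout replicate 3 and wild type replicate 1, as a failed estimate can be, and 0 of the 10 genes had such a zero. Hepatocyte markers had 0 calls by limma in 8, with 3 higher and none lower before adjustment (p under 0.05). Kupffer cell markers also had 0 calls in 8. Before adjustment 2 of them were higher and none lower, and all 8 log2 changes were above 0. The Kupffer cell markers summed to 118, 87.9 and 153.8 FPKM in knockout libraries, against 36.2, 59.3 and 112.7 FPKM in wild type libraries. The 8 sinusoidal endothelial markers summed to 90.3 to 127 FPKM in knockout and 68.8 to 158 FPKM in wild type, and the stellate cell markers to 93.1 to 137 FPKM in knockout and 107 to 163 FPKM in wild type. Of 6 adipocyte markers, Cidea and Cfd were lower in knockout (adjusted p 6.65e-06 for Cidea and 0.00388 for Cfd, limma). The list summed to 0.891 to 1.503 FPKM in knockout and 32.3 to 42.7 FPKM in wild type. Most of the wild type sum was Cidea alone, at 27.8 to 36.7 FPKM. The defining adipocyte markers Adipoq, Plin1, Lep and Retn did not exceed 0.233 FPKM in any library. Striated muscle markers other than Cpt1b were at 0.165 FPKM or less. In bulk tissue, fewer hepatocytes and less RNA per hepatocyte cannot be told apart, and the part of these cell types in the values below was not tested.

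The 10 genes were expressed at 66.0 to 594 FPKM, and none was called different in knockout by limma. Of all 10405 tested genes 2.76% were called at an adjusted p under 0.05, 1.65% lower and 1.11% higher in knockout. At an unadjusted p under 0.05, Acadm and Acads were lower and 0 of the 10 were higher, against 10% and 8.65% of all tested genes. Log2 changes were below 0 for 9 of the 10 genes (8 with rescaling to genes outside the mitochondrial genome, and 9 where that rescaling also left out genes listed at 0), and for 50.3% of all tested genes. Their median was -0.19 on the log2(FPKM + 1) scale, and that of all tested genes was -0.0018. Under 4 other scalings of the libraries the median of the 10 lay between -0.23 and -0.14. The knockout libraries lay wholly below the wild type libraries for 4 genes (Acadvl, Acadm, Acads and Decr1), as they did for 13% of all tested genes. Groups were free of overlap in either direction for 24.5% of tested genes. The 10 levels together summed to 1747, 1588 and 1872 FPKM in knockout replicates 1, 2 and 3, against 1964, 1842 and 1929 FPKM in wild type replicates 1, 2 and 3, so that the groups overlapped. As a share of all FPKM outside the mitochondrial genome they held 0.254%, 0.245% and 0.292% in knockout replicates 1, 2 and 3. The wild type shares were 0.334%, 0.284% and 0.233% in replicates 1, 2 and 3, so that wild type replicate 3 was the lowest library. The totals behind the shares of knockout replicate 3 and wild type replicate 1 lack Alb, which was listed at 0 there.

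**Figure D1:**
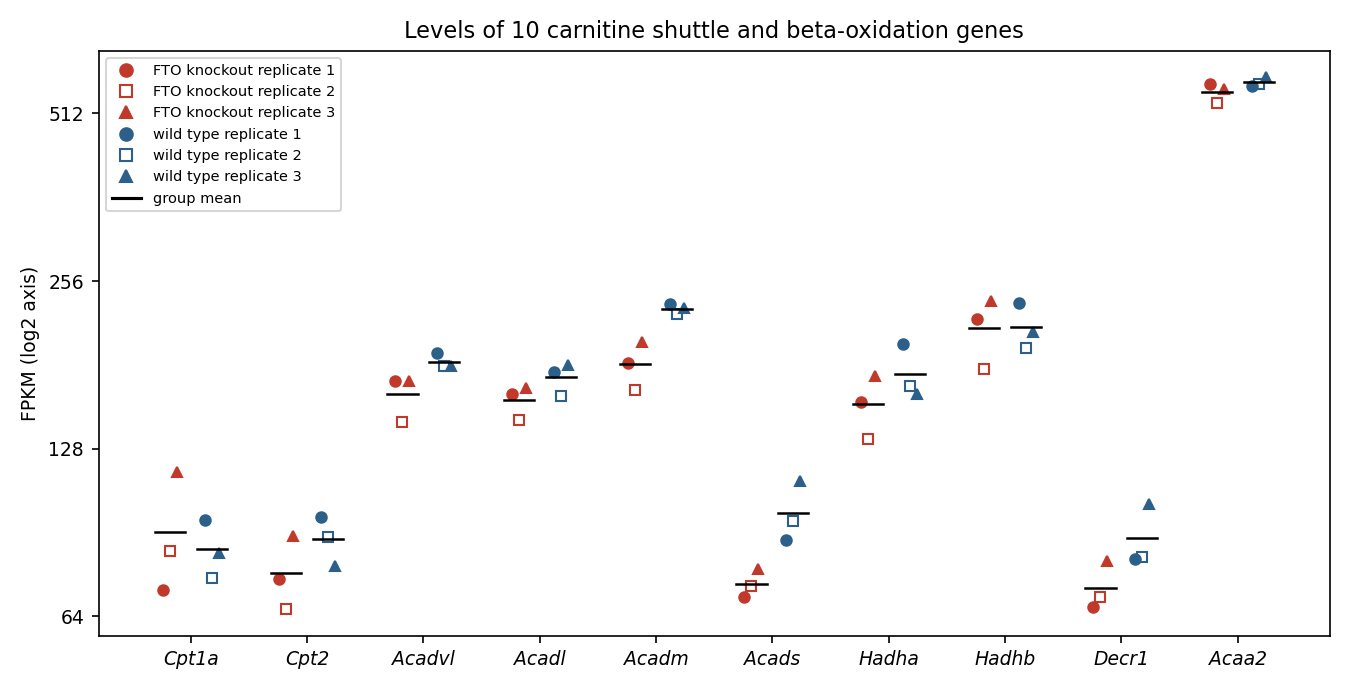
FPKM on a log2 axis of the 10 genes in each library, with knockout libraries in red to the left of wild type libraries in blue for each gene and a black bar at the group mean (n = 3 each). Knockout libraries lie wholly below wild type libraries for Acadvl, Acadm, Acads and Decr1, and the groups overlap for the other 6 genes.

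The carnitine palmitoyltransferase genes showed no common direction. Cpt1a, which encodes the liver form of the rate-controlling enzyme of the shuttle (ENSMUSG00000024900, chromosome 19, 3322334 to 3385733, mm10), was at 71.4, 83.9 and 116 FPKM in knockout replicates 1, 2 and 3, against 95.2, 74.97 and 83.1 FPKM in wild type replicates 1, 2 and 3. The highest and the lowest of the 6 values were both knockout libraries. Its log2 change was 0.077 (95% confidence interval -0.37 to 0.53, adjusted p 0.880 in limma). The sign depended on single libraries, with a log2 change of -0.12 without knockout replicate 3 and -0.0036 without wild type replicate 2. Cpt2, which encodes the enzyme of the inner membrane (ENSMUSG00000028607, chromosome 4, 107903981 to 107923610), was at 74.8, 66.0 and 89.2 FPKM in knockout replicates 1, 2 and 3, against 96.5, 88.7 and 78.8 FPKM in wild type replicates 1, 2 and 3. Knockout replicate 3 lay above wild type replicates 2 and 3, and the log2 change was -0.20 (-0.55 to 0.14, adjusted p 0.519). The ratio of Cpt1a to Cpt2 within a library averaged 1.18 ± 0.193 in knockout and 0.962 ± 0.107 in wild type (SD, n = 3 each), with overlapping libraries.

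The 4 acyl-CoA dehydrogenase genes, whose enzymes take very long, long, medium and short chains in the order Acadvl, Acadl, Acadm and Acads, all had lower means in knockout. Acads, for the short-chain enzyme (ENSMUSG00000029545, chromosome 5, 115110299 to 115119346), was at 69.4, 72.6 and 77.8 FPKM in knockout replicates 1, 2 and 3, against 87.9, 94.8 and 112 FPKM in wild type replicates 1, 2 and 3. Its log2 change was the most negative of the 10, at -0.41 with an SE of 0.13 (95% confidence interval -0.72 to -0.11, adjusted p 0.15 in limma). Over 14 alternatives its adjusted p ran from 0.0642 to 0.369. Acadm, for the medium-chain enzyme (ENSMUSG00000062908, chromosome 3, 153922357 to 153944632), was at 183, 163 and 199 FPKM in knockout replicates 1, 2 and 3, against 233, 224 and 229 FPKM in wild type replicates 1, 2 and 3. The wild type libraries lay close together and the knockout libraries all lay below them, with a log2 change of -0.33 (-0.62 to -0.051, adjusted p 0.198).

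Acadvl, for the very-long-chain enzyme of the inner membrane (ENSMUSG00000018574, chromosome 11, 70010183 to 70015411), was at 169.5, 143 and 169 FPKM in knockout replicates 1, 2 and 3, against 189.9, 179.9 and 180.5 FPKM in wild type replicates 1, 2 and 3. The groups did not overlap, and the log2 change was -0.19 (95% confidence interval -0.48 to 0.087, adjusted p 0.449 in limma). Exons of Dvl2 on the other strand cover up to 42.85% of its annotated exon bases, and reads of the 2 genes cannot be told apart without strand. Dvl2 was at 0.808 to 1.15 FPKM. Acadl, for the long-chain enzyme (ENSMUSG00000026003, chromosome 1, 66830839 to 66863277), was at 160.4, 144 and 164 FPKM in knockout replicates 1, 2 and 3, against 176, 159 and 181 FPKM in wild type replicates 1, 2 and 3. Wild type replicate 2 lay within the knockout range, and the log2 change was -0.14 (-0.42 to 0.14, adjusted p 0.599).

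Whether the short-chain and medium-chain genes differed from the very-long-chain gene was read from ratios within each library, which a single scaling factor per library does not change. The ratio of Acadm to Acadvl was 1.078, 1.14 and 1.17 in knockout replicates 1, 2 and 3, against 1.22, 1.24 and 1.27 in wild type replicates 1, 2 and 3, without overlap. The ratio of Acads to Acadvl averaged 0.459 ± 0.0489 in knockout and 0.537 ± 0.0800 in wild type (SD, n = 3 each). Those libraries overlapped, so an order of the changes by chain length was not separated from the spread.

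The trifunctional protein holds the last 3 steps of the cycle for long chains, with the hydratase and dehydrogenase on the alpha subunit (Hadha) and the thiolase on the beta subunit (Hadhb). The genes lie head to head on chromosome 5 with 85 bases between them, Hadha (ENSMUSG00000025745) at 30118304 to 30155162 on the minus strand and Hadhb (ENSMUSG00000059447) at 30155248 to 30184593 on the plus strand. Hadha was at 155, 133 and 173 FPKM in knockout replicates 1, 2 and 3, against 197, 166 and 161 FPKM in wild type replicates 1, 2 and 3. Hadhb was at 219, 178 and 236 FPKM in knockout replicates 1, 2 and 3, against 234, 194 and 207 FPKM in wild type replicates 1, 2 and 3. For each gene the groups overlapped, with log2 changes of -0.19 for Hadha (95% confidence interval -0.52 to 0.15, adjusted p 0.555 in limma) and -0.013 for Hadhb (-0.36 to 0.33, adjusted p 0.976).

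The ratio of the 2 subunit genes was also taken within each library. The ratio of Hadha to Hadhb was 0.710, 0.750 and 0.732 in knockout replicates 1, 2 and 3, against 0.843, 0.854 and 0.775 in wild type replicates 1, 2 and 3. All 3 knockout values lay below all 3 wild type values, with means of 0.730 ± 0.0201 and 0.824 ± 0.0429 (SD, n = 3 each). The ratio was 1 of 6 computed and was chosen after its values were seen, so it is given as a description. An exact permutation test of it gave p 0.1. That is the smallest p possible with 3 libraries per group, so the test could not decide. Among the 6, Hadha to Hadhb and Acadm to Acadvl were without overlap.

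**Figure D2:**
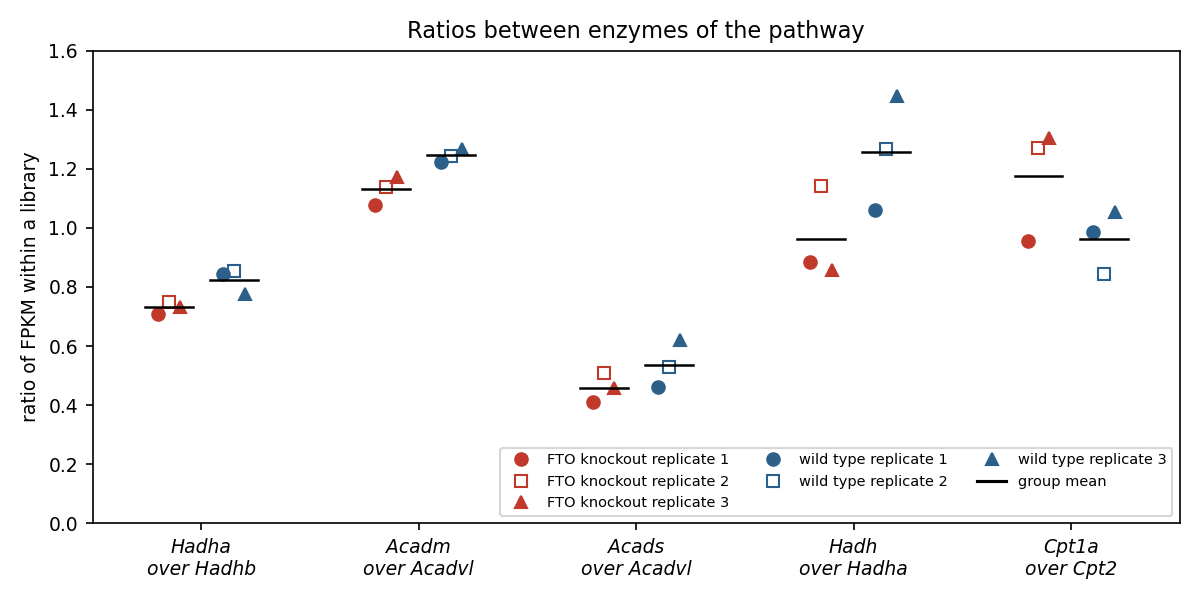
Ratios of FPKM within each library for 5 pairs of enzymes, with knockout libraries in red to the left of wild type libraries in blue and a black bar at the group mean (n = 3 each). The ratio of Hadha to Hadhb is 0.710 to 0.750 in knockout and 0.775 to 0.854 in wild type, and the ratios of Acads to Acadvl, Hadh to Hadha and Cpt1a to Cpt2 overlap.

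Decr1, whose enzyme reduces the double bonds of polyunsaturated acyl-CoAs (ENSMUSG00000028223, chromosome 4, 15917240 to 15945507), was at 66.5, 69.4 and 80.4 FPKM in knockout replicates 1, 2 and 3, against 81.1, 81.9 and 102 FPKM in wild type replicates 1, 2 and 3. The groups did not overlap by a narrow margin, and wild type replicate 3 was the highest. The log2 change was -0.29 with an SE of 0.14 (95% confidence interval -0.61 to 0.039, adjusted p 0.330 in limma). Acaa2, for the thiolase of the matrix (ENSMUSG00000036880, chromosome 18, 74779197 to 74806208), was the most abundant of the 10. It was at 579, 535 and 567 FPKM in knockout replicates 1, 2 and 3, against 573, 579 and 594 FPKM in wild type replicates 1, 2 and 3. The log2 change was -0.056 (-0.32 to 0.21, adjusted p 0.850), and knockout replicate 1 lay within the wild type range.

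By mean level the 10 genes fell into 3 steps. Acaa2 stood above all others in every library. Hadhb, Acadm, Acadvl, Hadha and Acadl followed at 133 to 236 FPKM, and neighbours in that order overlapped in both groups except Acadm and Acadvl, which overlapped in knockout only. Cpt1a, Acads, Cpt2 and Decr1 formed the lowest step at 66.0 to 116 FPKM, and neighbours within it overlapped in both groups. The gap between Acadl and Cpt1a was free of overlap in both groups.

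On the FPKM scale as deposited, single libraries ran low or high over many of the 10 genes. Knockout replicate 2 was the lowest of the 6 libraries for 7 of the 10 genes, and knockout replicate 1 for the other 3 (Cpt1a, Acads and Decr1). Knockout replicate 3 was the highest knockout library for 8 genes, and the highest of all 6 for Cpt1a and Hadhb. Averaged over the 10 genes, the deviation from the mean of each gene was -0.11, -0.21 and 0.065 on the log2 scale in knockout replicates 1, 2 and 3, against 0.13, 0.022 and 0.11 in wild type replicates 1, 2 and 3. Knockout replicate 3 thus lay above wild type replicate 2. Acads and Decr1 were both lowest in knockout replicate 1 and highest in wild type replicate 3. Cpt1a was farthest from the average profile, with a root mean square distance of 0.21 on the log2 scale, and Acadl was closest at 0.054.

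**Figure D3:**
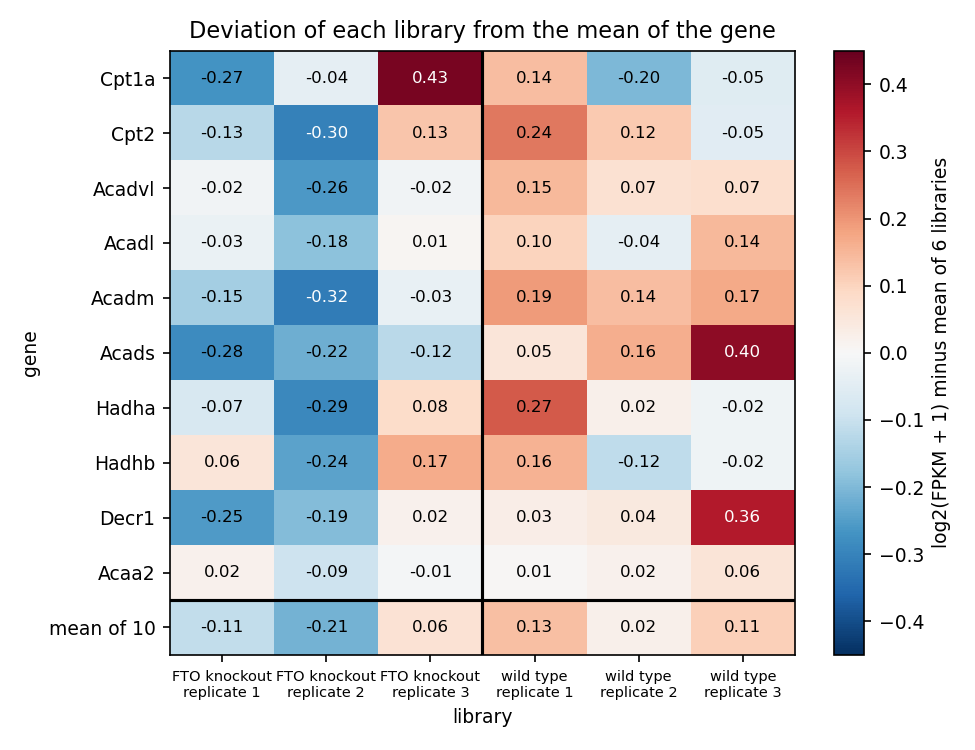
Deviation of each library from the mean of the 6 libraries for each of the 10 genes, as log2(FPKM + 1), with knockout libraries on the left and the average over the 10 genes in the lowest row. Knockout replicate 2 is below the mean for all 10 genes, and Cpt1a in knockout replicate 3 has the largest value, 0.43.

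Of 4292 other genes at 10 FPKM or more on average, the 5 nearest to the average profile of the 10 were Cald1, Ube2d2a, Gid8, Fcgrt and Crb3. Their root mean square distances over the 6 libraries were 0.027 to 0.042 on the log2 scale. Their log2 changes were -0.21 to -0.12, and 0 of the 5 were called by limma, with adjusted p-values of 0.391 to 0.645.

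Promoter sequence was available from RefSeq (GRCm38.p6) for Acadl, Acadm, Cpt2, Hadha, Hadhb, Acads, Acadvl and Cpt1a, as 300 bases from 250 before the annotated start to 50 after it. Decr1 and Acaa2 are not shown. The window of Hadhb is printed because it also holds most of the window of Hadha, with 228 bases in common and 273 bases between the starts annotated there. The gene positions given above are those of GENCODE, with 85 bases between Hadha and Hadhb. Starts differ between these sources, as for Hadha and Cpt1a. Those of Acads and Acadm are printed because these genes had the lowest p-values of the 10, and that of Cpt1a because its log2 change alone was above 0. Sequences run 5′ to 3′ on the strand of the gene, and capitals mark GGGCGG (GC box), AGGTCA (a nuclear receptor motif) and CCAAT on either strand. The windows are chr5:30155003-30155302 (plus) for Hadhb, chr5:115119297-115119596 (minus) for Acads, chr3:153944594-153944893 (minus) for Acadm and chr19:3323051-3323350 (plus) for Cpt1a.
Hadhb: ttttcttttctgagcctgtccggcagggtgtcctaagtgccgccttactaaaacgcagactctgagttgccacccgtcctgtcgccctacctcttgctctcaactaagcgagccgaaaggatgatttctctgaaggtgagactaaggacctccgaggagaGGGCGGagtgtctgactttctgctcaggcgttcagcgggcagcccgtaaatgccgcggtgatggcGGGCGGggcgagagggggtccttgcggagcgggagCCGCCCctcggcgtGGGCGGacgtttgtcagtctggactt
Acads: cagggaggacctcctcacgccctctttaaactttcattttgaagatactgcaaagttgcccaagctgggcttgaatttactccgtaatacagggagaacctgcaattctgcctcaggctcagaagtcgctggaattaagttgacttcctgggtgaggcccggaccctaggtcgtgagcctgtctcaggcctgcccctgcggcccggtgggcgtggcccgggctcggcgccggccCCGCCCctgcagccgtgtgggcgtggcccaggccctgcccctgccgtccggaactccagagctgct
Acadm: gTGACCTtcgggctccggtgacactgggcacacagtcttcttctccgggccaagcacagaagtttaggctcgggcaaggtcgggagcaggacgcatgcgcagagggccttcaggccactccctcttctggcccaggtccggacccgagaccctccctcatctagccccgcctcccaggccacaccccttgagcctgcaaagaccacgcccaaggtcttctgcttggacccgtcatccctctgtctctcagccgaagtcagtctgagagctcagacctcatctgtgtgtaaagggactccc
Cpt1a: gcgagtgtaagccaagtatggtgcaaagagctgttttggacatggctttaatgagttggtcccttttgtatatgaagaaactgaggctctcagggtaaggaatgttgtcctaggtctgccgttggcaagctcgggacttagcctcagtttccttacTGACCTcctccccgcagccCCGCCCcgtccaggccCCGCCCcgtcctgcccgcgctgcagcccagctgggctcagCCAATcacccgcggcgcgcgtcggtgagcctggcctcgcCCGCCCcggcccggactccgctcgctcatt

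The GC box was in 6 of the 8 windows (all but Acadm and Acadvl), against 35.7% of 32851 promoter windows of the same length. Hadhb held 4 and Acads 1. The only GC box of Hadha lies in the part that its window shares with that of Hadhb. It is 1 of the 4 of Hadhb, so 1 site is counted in both windows. AGGTCA was in Acadm, Acadvl and Cpt1a, against 16.3% of all windows, and CCAAT was in Cpt1a, against 37.4%. A direct repeat with 1 base between, the form known to bind PPAR alpha with RXR, was searched on both strands with AGGTCA and with AGGNCA as the repeated unit. The first was in 0 of the 8 windows, against 0.04% of all windows, and the second in 0, against 0.381%. TATAAA was in 0 of the 8, against 13.6%, and the estrogen related receptor motif TCAAGGTCA in 0, against 0.423%. The windows held 9 to 34 CG dinucleotides, against a median of 7 over all windows (quartiles 3 and 20). Only Acadl, Hadhb and Cpt1a lay above the upper quartile. Each match is a run of letters in a short window and draws nothing about a factor. The repeats and TCAAGGTCA are so rare over all windows that 0 in 8 was the likely outcome for any genes. Their absence therefore draws nothing either, and sequence outside the windows was not searched. The repeats and TCAAGGTCA contain AGGTCA or a form of it, so their matches overlap. GGACT, a form of the sequence in which N6-methyladenosine is often found, occurred in the longest transcript of all 10 genes at a median of 0.977 per kilobase, against 1.04 for 9786 tested protein-coding genes, of which 91.2% held it.

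Other genes of the pathway and of steps around it included calls where the 10 did not. The lists used reach beyond the beta-oxidation cycle, as with Pcca, Pccb, Mcee and Mut, which act on propionyl-CoA and its products. In 4 lists that cover the rest of the carnitine shuttle, acyl-CoA activation, other beta-oxidation enzymes and electron transfer, 35 of 36 symbols were in the table, the other being a second name for Mut, and 32 genes were tested. Of these, limma called 4 lower and 0 higher, beside 1.65% of all tested genes called lower and 1.11% higher. Before adjustment (p under 0.05) 16 were lower and 2 higher, against 10% and 8.65% of all tested genes. Knockout libraries lay wholly below wild type for 18 of the 32, against 13% of all tested genes, and the median log2 change was -0.31. The lists were chosen with earlier results of these data known, so the counts are not independent evidence of a direction.

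The called genes were Hadh, Eci1, Pcca and Acsm3. Hadh encodes the dehydrogenase of the matrix for medium and short chains. It was at 137, 152 and 148 FPKM in knockout replicates 1, 2 and 3, against 209, 210.1 and 233 FPKM in wild type replicates 1, 2 and 3. The groups were far apart, and it fell with a log2 change of -0.57 (SE 0.12, adjusted p 0.0483 in limma). Eci1, for an isomerase that prepares unsaturated acyl-CoAs, fell to 127 ± 10.2 FPKM in knockout, against 195 ± 18.2 FPKM in wild type (SD, n = 3 each), with a log2 change of -0.62 (adjusted p 0.0498 in limma). Pcca, for a subunit of propionyl-CoA carboxylase, which handles the product of odd-numbered chains, fell to 64.4 ± 2.92 FPKM in knockout, against 109.7 ± 17.6 FPKM in wild type (SD, n = 3 each), with a log2 change of -0.75 (adjusted p 0.0411 in limma). Acsm3, for a medium-chain acyl-CoA synthetase, fell to 38.1 ± 3.29 FPKM in knockout, against 58.8 ± 4.34 FPKM in wild type (SD, n = 3 each; adjusted p 0.0409 in limma).

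These 4 calls were near the threshold. Those of Acsm3, Hadh and Eci1 ended whenever a library other than wild type replicate 3 was omitted, and the adjusted p was then 0.0768 to 0.142 for Acsm3, 0.0806 to 0.181 for Hadh and 0.0823 to 0.153 for Eci1. That of Pcca ended without knockout replicate 1 (0.136), 2 (0.109) or 3 (0.142) and without wild type replicate 2 (0.177) or 3 (0.0508). All 4 calls ended with no filter on low values. Those of Acsm3, Hadh and Eci1 also ended with rescaling to genes outside the mitochondrial genome. Robust moderation or a mean of at least 5 FPKM ended those of Hadh and Eci1. Over 14 alternatives the adjusted p ran from 0.0289 to 0.142 for Acsm3, 0.0262 to 0.181 for Hadh, 0.0141 to 0.153 for Eci1 and 0.0120 to 0.177 for Pcca. The log2 changes stayed below 0, which leaving out a library could not alter because the groups of each gene did not overlap. Hsd17b10, named after its value was seen, lay just past the threshold (log2 change -0.61, adjusted p 0.0511). Hadh is the counterpart of the dehydrogenase on the alpha subunit, and the ratio of Hadh to Hadha averaged 0.961 ± 0.156 in knockout and 1.26 ± 0.194 in wild type (SD, n = 3 each), with overlapping libraries.

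**Figure D4:**
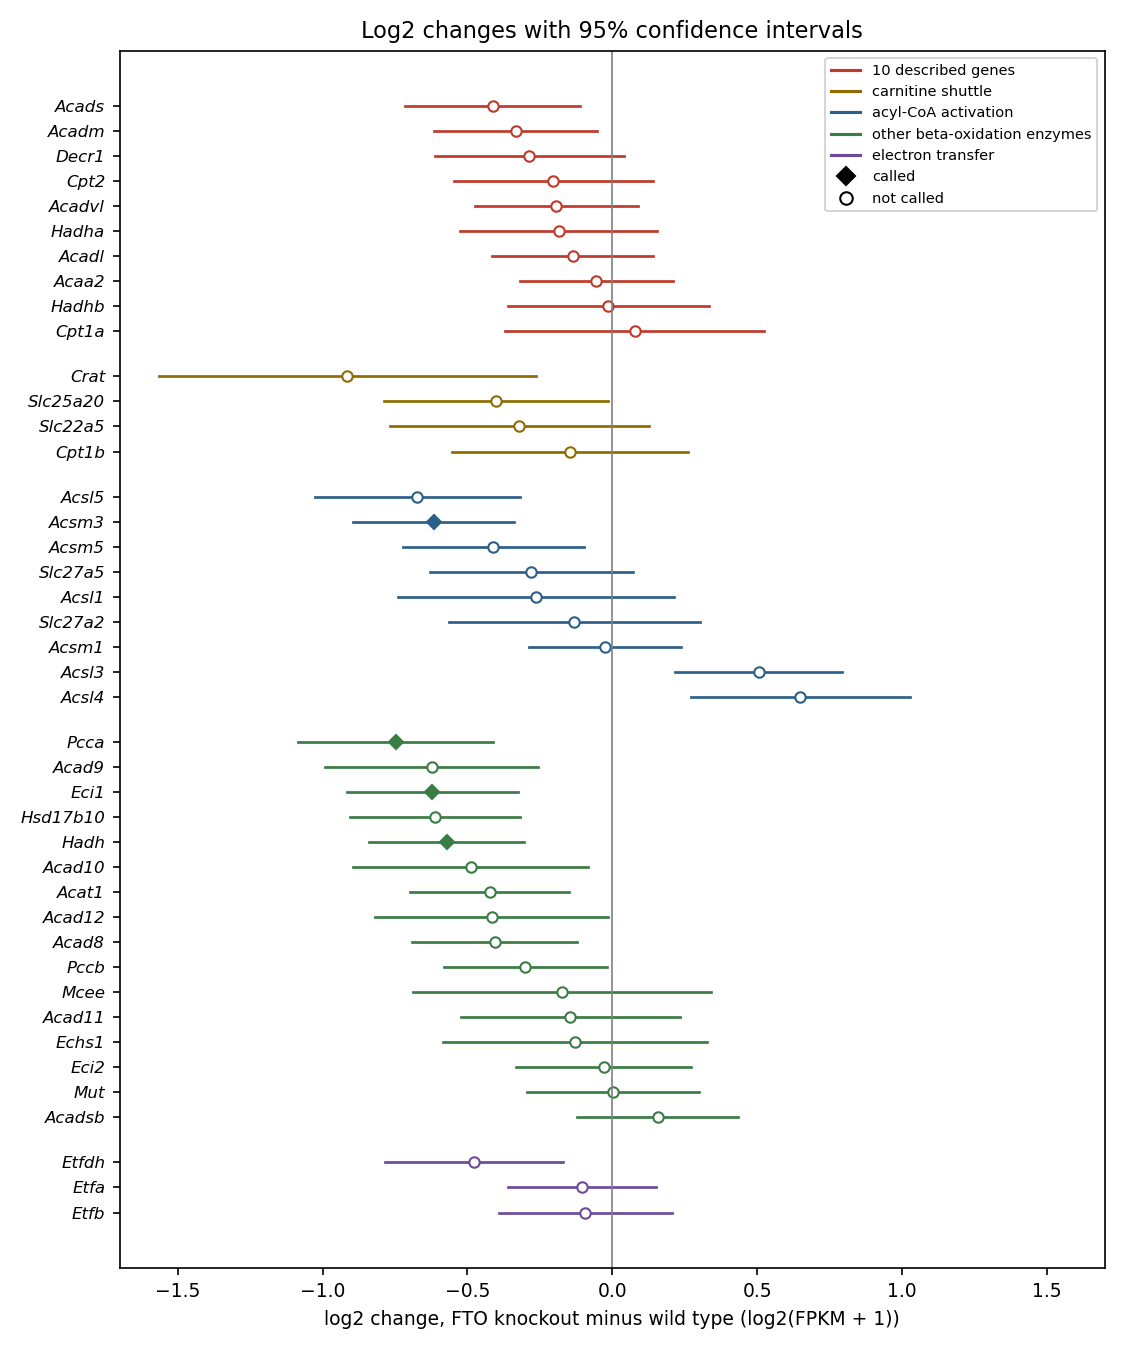
Log2 change in knockout minus wild type on the log2(FPKM + 1) scale, with 95% confidence intervals from limma, for the 10 described genes and 32 tested genes of 4 other lists. Filled diamonds mark the genes called at an adjusted p under 0.05 (Hadh, Eci1, Pcca and Acsm3), and of the 10 described genes the intervals of Acads and Acadm alone exclude 0.

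In the rest of the carnitine shuttle limma called 0 of 4 tested genes, and before adjustment 2 were lower (p under 0.05). Slc25a20, the carnitine-acylcarnitine translocase between CPT1 and CPT2, was at 69.4, 47.8 and 64.6 FPKM in knockout replicates 1, 2 and 3, against 89.3, 73.4 and 76.2 FPKM in wild type replicates 1, 2 and 3. Its groups did not overlap, and the log2 change was -0.40 (95% confidence interval -0.79 to -0.015, adjusted p 0.249 in limma). Crat, for the carnitine acetyltransferase, was at 24.6, 11.5 and 25.7 FPKM in knockout replicates 1, 2 and 3, against 41.7, 34.3 and 36.9 FPKM in wild type replicates 1, 2 and 3. Knockout replicate 2 was the lowest here as well, and the log2 change was -0.91 (-1.56 to -0.26, adjusted p 0.142). Cpt1c, the brain form of CPT1, was at 0.110 FPKM or less and was not tested.

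In acyl-CoA activation 1 of 9 tested genes was lower (Acsm3) and 0 were higher. Acsl5, for a long-chain acyl-CoA synthetase, averaged 77.8 ± 14.7 FPKM in knockout and 123 ± 4.02 FPKM in wild type (SD, n = 3 each), with a log2 change of -0.67 (adjusted p 0.0650 in limma). Acsl3 and Acsl4, named after their values were seen, had log2 changes in the other direction, 0.51 and 0.65 (adjusted p 0.0815 and 0.0853 in limma). Acsl6 and Acss1 were at 0.316 FPKM or less and were not tested. In electron transfer, which passes electrons from the dehydrogenases to the respiratory chain, limma called 0 of 3 genes, and before adjustment 1 was lower (p under 0.05). Etfdh averaged 120.3 ± 15.3 FPKM in knockout and 167 ± 9.37 FPKM in wild type (SD, n = 3 each), with a log2 change of -0.48 (adjusted p 0.110 in limma), and Etfa had a log2 change of -0.10 (adjusted p 0.678).

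Of 17 tested genes that control the pathway limma called 0. Before adjustment (p under 0.05) 2 were higher and 1 was lower, and their median log2 change was -0.021. Ppara was at 30.9, 38.7 and 44.8 FPKM in knockout replicates 1, 2 and 3, against 38.2, 36.4 and 62.4 FPKM in wild type replicates 1, 2 and 3. The groups overlapped, with an adjusted p of 0.654 in limma. Nrf1, for nuclear respiratory factor 1, averaged 4.07 ± 0.393 FPKM in knockout and 2.40 ± 0.417 FPKM in wild type (SD, n = 3 each; log2 change 0.58, adjusted p 0.0561 in limma). Sirt5, a mitochondrial deacylase gene, had a log2 change of -0.41 (adjusted p 0.215), and Ppargc1b was at 0.859 FPKM or less and was not tested.

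Of 11 other genes known as PPAR alpha targets 1 was called lower and 10 were not called, beside 1.65% of all tested genes called lower and 1.11% higher. Before adjustment (p under 0.05) 4 were lower and 0 higher, against 10% and 8.65% of all tested genes. The 11 genes had a median log2 change of -0.45, with 9 below 0 and 2 above 0. Those above 0, named after their values were seen, were Fgf21 (0.66, adjusted p 0.608 in limma) and Angptl4 (0.25, adjusted p 0.467). Cyp4a14 and Cyp4a10, named in the same way, had log2 changes of -1.51 and -1.26 (adjusted p 0.128 and 0.152 in limma). The groups of Cyp4a10 overlapped and those of Cyp4a14 did not. Vnn1, a pantetheinase gene, fell to 24.4 ± 5.72 FPKM in knockout, against 62.6 ± 12.4 FPKM in wild type (SD, n = 3 each; log2 change -1.33, adjusted p 0.0173 in limma). Its call ended without knockout replicate 1 (0.0683) or wild type replicate 2 (0.0539) and with no filter on low values (0.138). Its adjusted p ran from 0.0123 to 0.138 over 14 alternatives. Ehhadh of the peroxisome averaged 77.3 ± 14.0 FPKM in knockout and 116 ± 15.8 FPKM in wild type (SD, n = 3 each; log2 change -0.58, adjusted p 0.119 in limma). Pdk4, for a kinase that inhibits pyruvate dehydrogenase, was at 0.336 to 3.08 FPKM in knockout and 1.58 to 2.59 FPKM in wild type.

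Of 17 tested genes that stand for mitochondrial content, such as enzymes of the citrate cycle, the import machinery and the respiratory chain, limma called 0, and before adjustment (p under 0.05) 1 was lower and none was higher. Their median log2 change was -0.10, beside -0.19 for the 10 genes and -0.31 for the other pathway genes. Cs, for citrate synthase, averaged 28.5 ± 0.845 FPKM in knockout and 40.0 ± 3.90 FPKM in wild type (SD, n = 3 each; log2 change -0.47, adjusted p 0.0770 in limma). Hspd1, for the matrix chaperonin, had a log2 change of 0.26 (adjusted p 0.287). Transcripts of the mitochondrial genome held 23.8%, 27.2% and 26.0% of the FPKM sum in knockout replicates 1, 2 and 3, against 30.3%, 28.1% and 23.2% in wild type replicates 1, 2 and 3. Their part in the values above was not tested beyond the rescaling named with the alternatives.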

How the data were processed

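RNA of 6 mouse liver libraries was measured by sequencing. Per the labels' protocols, Trizol-extracted total RNA went through DNase and an RNeasy kit before library preparation. The authors deposited FPKM values per Ensembl gene, a unit inferred from their range and from the tools. The build is mm10, and the tools are Cufflinks 2.2.1, HTSeq and TopHat2 2.1.0, per the submitters' processing notes. What each tool did, the strandedness and the annotation release are not given in the sources used here. FPKM assigns reads of overlapping or near-identical genes by rules not stated.

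Gene symbols and positions are those of GENCODE M21 on GRCm38, and matched 24807 of 25690 identifiers. Cox4i1 and Acta1 were not analysed here. Groups came from the genotype label, and replicate numbers follow the order of samples. Knockout and wild type were compared in limma 3.58.1 (R 4.3.3), two-sided and with a trended prior. Values were log2(FPKM + 1), and the 10405 genes averaging 1 FPKM or more were kept. Calls needed an adjusted p (Benjamini-Hochberg, over those genes) under 0.05. Log2 changes on this scale understate the change of low genes. Depth was inferred from 964 genes with 1 transcript of 3000 to 8000 bases, and 75.0% to 82.2% of values under 3.5 steps lay within 0.15 of a whole step; the window was chosen after values were seen. No count model was used. The code was tested on simulated data.

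The 10 genes and the lists were chosen with earlier results of these data known. The genes named are the 10, in each other list those called, the 2 of smallest p and those not tested, the 5 nearest profiles, Fto, Ppara and Pdk4. Some genes that this rule names are not reported here. The alternatives were 3 scalings, robust moderation, other filters (none, or 5 FPKM), a pseudocount of 0.1 and leaving out each library. A scaling without genes listed at 0 and the ratios were added after the data were seen.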

Additional observations from a re-analysis of the deposited data

How the results depend on the processing

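None of the 10 genes was called under any of the 14 alternatives, and the median of their log2 changes ran from -0.25 without knockout replicate 3 to -0.094 without knockout replicate 2. The sign of Hadhb turned to 0.034 with rescaling to genes outside the mitochondrial genome (-0.049 where that rescaling also left out genes listed at 0), to 0.10 without knockout replicate 2 and to 0.061 without wild type replicate 1. That of Cpt1a turned to -0.12 without knockout replicate 3 and to -0.0036 without wild type replicate 2. With 1 library left out Hadhb ran from -0.10 to 0.10 and Cpt1a from -0.12 to 0.23. The other 8 kept their sign. The count of 4 lower genes in the other pathway lists became 2 with that rescaling, with robust moderation or with a mean of at least 5 FPKM, and 0 with no filter on low values. It became 5 with median ratio size factors, with quantile normalization and with the rescaling that left out genes listed at 0. With 1 library left out the count was 0 (knockout replicate 1 or 3, or wild type replicate 2), 1 (knockout replicate 2 or wild type replicate 1) or 4 (wild type replicate 3, where Pcca was not among them). With quantile normalization 1 of these genes was higher, and with 1 library left out 0 to 1 were. Among all genes 115 were higher and 172 lower. With quantile normalization 180 were higher and 225 lower, with no filter 34 were higher and 45 lower, and with a mean of at least 5 FPKM 69 were higher and 96 lower. With 1 library left out 38 to 266 were higher and 39 to 209 lower. More genes were higher than lower without wild type replicate 3 (266 higher and 209 lower). The same held by few genes without wild type replicate 2 (60 and 54), without knockout replicate 1 (65 and 62) and with the rescaling (147 and 142). In the main fit and under every other alternative more genes were lower than higher, as with the rescaling that left out genes listed at 0 (129 higher and 226 lower). The causes were not tested. The difference in the ratio of Hadha to Hadhb was -0.118 to -0.0783 with 1 library left out. It could not change sign, because the groups did not overlap. No paired analysis was possible because the labels carry no replicate numbers that pair libraries. At the inferred depth, and if fragments came from the longest transcripts, counting error was small for these genes. The number of libraries limits the precision.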
